A study of Mus musculus with 6 samples.

Results

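Apoe and genes of the liver X receptor (LXR) pathway were examined as a set of 9 named genes, Apoe, Apoc1, Apoc2, Nr1h3, Nr1h2, Abca1, Abcg1, Mylip and Pltp. A gene was taken up where the platform annotation gave a probe set exactly 1 symbol and that symbol was in the set, and its brightest probe set stood for it. That left 7 of the 9 genes, among 19938 genes in all, each with 1 probe set. Apoc2, whose probe set carries a second symbol, and Nr1h2, for which no probe set is annotated here, were not analysed. The set was proposed with the difference between the groups known, so the values of its members are given as a description without a test.

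The arrays held RNA of tumour-associated macrophages, the macrophages found inside a tumour, sorted by flow cytometry from hepa1-6 tumours growing in the liver of C57BL/6 mice. Hepa1-6 is a mouse hepatoma cell line. Of 6 arrays, 3 belong to the vehicle group and 3 to the group treated with PLX3397, which blocks the growth factor receptor CSF1R and a few related kinases. The labels used here do not state age, dose, length of treatment or pooling of animals, and a p-value measures only the spread between these samples. The description fields also give vehicle samples a name of macrophages under LPS and interferon-gamma and treated samples one of macrophages under IL4, against titles, sources and treatment labels, which were used for grouping.

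LXRs are nuclear receptors that bind oxysterols and desmosterol and, as pairs with RXR, switch on genes that carry cholesterol out of the cell. In macrophages these targets include the exporters ABCA1 and ABCG1, apolipoproteins that take up the exported lipid, the ligase MYLIP, which marks lipoprotein receptors for destruction, and the lipid transfer protein PLTP. Nr1h3 encodes LXR alpha and Nr1h2 LXR beta. ApoE is the main apolipoprotein that macrophages themselves secrete, and it is also a ligand of lipoprotein receptors and of TREM2.

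LXR with RXR binds a pair of half-sites that repeat in the same direction with a short gap (a DR4-type repeat), and such a repeat was looked for in the promoter windows of RefSeq (build GRCm38.p6), which run from 250 bases before to 50 after each start. The letters searched were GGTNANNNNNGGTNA on both strands. Of 32851 windows of all genes, 0.72% held a match. Of 9 named genes 7 had a window, 10 windows in all, and 1 window held a match, that of Abca1, from position -67 to -53 before the start site. Of the 15 further LXR targets described below 10 had a window, and those of Srebf1 and Fasn held a match. The Abca1 stretch shows where the repeat lies, with the match in capitals (build GRCm38.p6, chr4:53159896-53160045, minus strand, positions -150 to -1), and the Apoe stretch shows the same distance before the most distant of its 3 annotated starts, with no match (build GRCm38.p6, chr7:19699189-19699338, minus strand).
Abca1: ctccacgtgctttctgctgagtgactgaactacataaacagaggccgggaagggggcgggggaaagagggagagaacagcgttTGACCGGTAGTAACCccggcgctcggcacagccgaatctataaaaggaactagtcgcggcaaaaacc
Apoe: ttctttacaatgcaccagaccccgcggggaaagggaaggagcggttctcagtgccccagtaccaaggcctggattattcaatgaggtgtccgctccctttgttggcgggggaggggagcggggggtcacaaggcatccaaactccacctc

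Read on the other strand, these 3 matches can be set side by side, with the stretches that match GGTNA in capitals and the 5 bases between them in lower case. The last lower-case base lies where a full half-site AGGTCA would begin, so the gap between half-sites is shorter than this run.
Abca1: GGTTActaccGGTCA
Fasn: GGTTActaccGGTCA
Srebf1: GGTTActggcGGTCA
The Fasn match had 0 bases different from that of Abca1, and the Srebf1 match had 2, both in the lower-case stretch. Other letters searched on both strands were AGGTCA, a single half-site (16.3% of all windows; among the named genes in Apoc2), GGGCGG, the GC box (35.7%; in Abca1, Mylip and Pltp), GAGGAAG, an ETS-type run (13.6%; in Nr1h3), CACGTG, the E-box (7.15%; in Abca1), and TGANTCA, an AP-1-type site (7.81%; in no window of the named genes). A match is a run of letters and not a shown binding site, and Abcg1 and Apoc1 had no window here. Sequence outside the windows was not searched, so a missing match does not show that a gene lacks such a site.

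Values are log2 expression as deposited, and differences are PLX3397 minus vehicle on that scale with the standard error (SE) of a limma fit over all genes. Macrophages of PLX3397-treated mice had far less Apoe and Nr1h3 transcript and more Abca1 and Abcg1 transcript, while Mylip and Pltp differed little. The 7 measured genes had a median difference of -0.14, beside 0.04 over all genes. In the limma fit 3 were past the threshold of an adjusted p of 0.05 as higher and 3 as lower, beside 37.8% of all genes in either direction (19.6% higher and 18.3% lower), and in 6 of the 7 genes no treated value fell within the vehicle range or the reverse, 3 of them higher and 3 lower, beside 49.3% of all genes (27.4% higher and 21.9% lower). Of all calls 51.7% were higher, but 30.6% with each array centred on its own median, which moved the median difference of all genes from 0.04 to -0.09. Since the set was chosen on this comparison, nothing is read from those counts.

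Among the apolipoproteins, Apoe was at 12.97, 12.85 and 12.94 on vehicle arrays 1, 2 and 3 and at 8.09, 8.65 and 8.44 on PLX3397 arrays 1, 2 and 3. All 3 treated arrays lay far below all 3 vehicle arrays, and they were also more spread out, at 8.40 ± 0.28 (SD, n = 3) against 12.92 ± 0.06 (SD, n = 3). The difference was -4.52 (SE 0.13), which is 23.0-fold. It ranked 1 among falls of 19938 genes, and also ranked 1 in each of the 14 alternative settings, where it ran from -4.66 to -4.37. Apoe stayed well above the background level in both groups, set for each array at the 95th percentile of its 1194 olfactory or vomeronasal receptor genes (3.52 to 3.58).

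Apoc1, which encodes a small apolipoprotein of the same gene cluster, was at 3.13, 3.15 and 3.35 on vehicle arrays and at 3.39, 3.47 and 3.60 on PLX3397 arrays. It exceeded background on 0 vehicle arrays and on 1 PLX3397 array, replicate 3. Its difference of 0.28 (SE 0.09) therefore lies at the floor of the measurement, and no fold is given. Over the 12 alternatives that gave it a value the difference ran from 0.15 to 0.35.

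Among the receptors, Nr1h3 was at 8.65, 8.73 and 8.70 with vehicle and at 6.33, 6.53 and 6.37 with PLX3397. The groups were tight, at 8.69 ± 0.04 and 6.41 ± 0.11 (SD, n = 3 each), and far apart. The difference was -2.28 (SE 0.08), or 4.87-fold, and ranked 46 among falls. Over the alternatives it ran from -2.42 to -2.24.

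The cholesterol exporters, which are targets of the receptor, went the other way. Abca1, whose protein loads cholesterol and phospholipid onto lipid-poor apolipoproteins, was at 9.23, 9.30 and 9.19 with vehicle and at 9.91, 10.12 and 9.95 with PLX3397. Abcg1, whose protein moves cholesterol to formed lipoprotein particles, was at 8.54, 8.52 and 8.43 with vehicle and at 9.46, 9.64 and 9.47 with PLX3397. For both genes each treated array lay above each vehicle array. The difference was 0.75 (SE 0.09), or 1.69-fold, for Abca1 and 1.02 (SE 0.08), or 2.04-fold, for Abcg1. With each array centred on its own median they were 0.62 and 0.89.

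Mylip, which encodes the ligase for lipoprotein receptors, was at 7.69, 7.73 and 7.67 with vehicle and at 7.34, 7.54 and 7.48 with PLX3397. The groups did not overlap but lay close, at a difference of -0.24 (SE 0.08). Its size depended on the scaling, at -0.13 with quantile normalisation and -0.38 with centred arrays. Leaving out 1 array gave differences from -0.29 to -0.19.

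Pltp, which encodes a secreted protein that moves phospholipids between lipoproteins, was at 10.58, 10.46 and 10.36 with vehicle and at 10.08, 10.43 and 10.47 with PLX3397. Its groups overlapped, since PLX3397 replicates 2 and 3 lay inside the vehicle range, and PLX3397 replicate 1 lay below it. The difference was -0.14 (SE 0.11), and -0.02 without PLX3397 replicate 1.

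**Figure D1:**
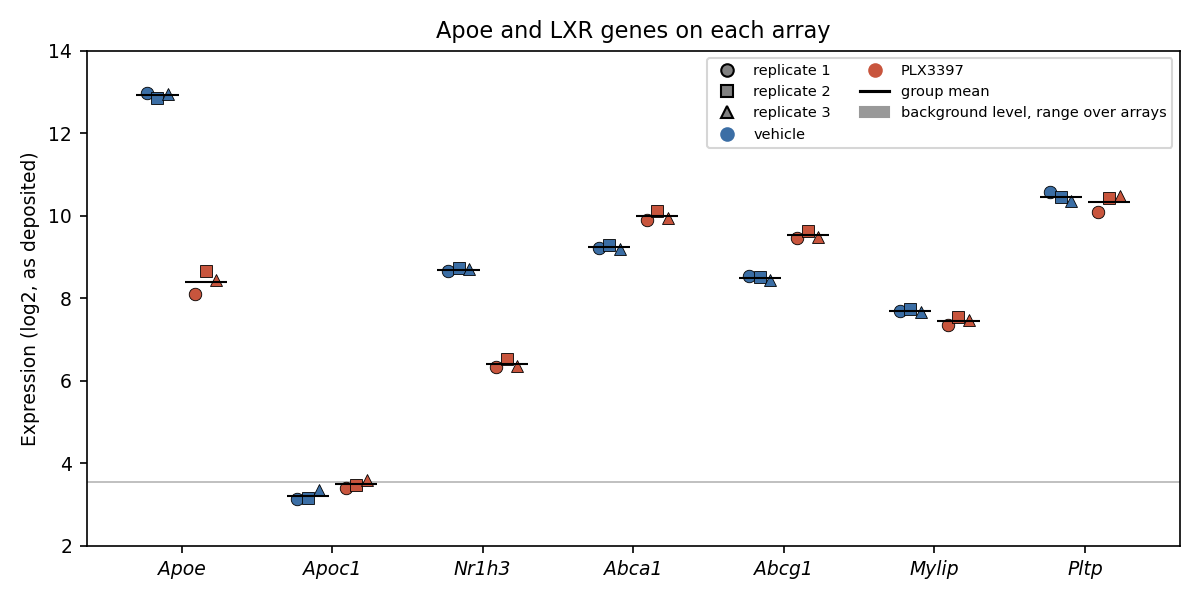
Expression (log2, as deposited) of the 7 measured genes on each of 6 arrays, vehicle in blue and PLX3397 in red, with replicates by shape, group means as bars and the background level as a grey band. The mean of Apoe is 12.92 with vehicle and 8.40 with PLX3397 and that of Nr1h3 8.69 and 6.41, Abca1 and Abcg1 lie higher with PLX3397, Pltp overlaps, and Apoc1 lies at the background level.

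Beyond these genes, 14 of 15 further LXR targets were measured, in a list chosen with earlier results of these data known. Of these 6 rose and 2 fell in the limma fit (adjusted p below the threshold of 0.05, beside 37.8% of all genes), with a median difference of 0.26. Scd2, a desaturase that makes monounsaturated fatty acids, was at 6.98, 7.30 and 7.30 with vehicle and at 10.96, 10.97 and 11.10 with PLX3397. It rose by 3.81 (SE 0.10, adjusted p = 4.34e-09), with each treated array above each vehicle array by a wide margin.

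Scd1, the desaturase of liver and fat, was at 3.99, 4.41 and 3.87 with vehicle and at 5.94, 5.40 and 9.13 with PLX3397. Replicate 3 of the treated group stood far above the other two. Scd1 rose by 2.73 (SE 0.75, adjusted p = 0.015), and by 1.58 without that array (adjusted p = 6.25e-05). Its adjusted p was 0.150 with a variance trend and robust variances together and 0.050 without vehicle replicate 3, a value just above the threshold. Fasn, the fatty acid synthase, showed the same array apart, at 5.72, 5.68 and 5.86 with vehicle and at 6.25, 6.05 and 7.29 with PLX3397. It rose by 0.78 (SE 0.26, adjusted p = 0.036) and by 0.40 without PLX3397 replicate 3 (adjusted p = 0.011), and its adjusted p over the alternatives reached 0.142.

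Markers of fat cells moved with that array. In a list of 8 adipocyte genes, added after the values were seen, the mean log2 level was between 3.54 and 3.66 on vehicle arrays, 3.63 and 3.73 on PLX3397 replicates 1 and 2, and 6.37 on replicate 3. Adipoq, the adipocyte hormone, exceeded background on 1 array of 6, with 5.50 on PLX3397 replicate 3 against 2.74 to 2.97 elsewhere. Car3 was at 9.47 there and between 3.01 and 3.16 elsewhere, and Fabp4 at 8.10 against 3.50 to 4.28. Lep, another adipocyte hormone, exceeded background on 0 arrays. The part of these cells' RNA in the Scd1 and Fasn values was not tested. The differences of Apoe, Nr1h3, Abca1 and Abcg1 without that array were -4.55, -2.26, 0.78 and 1.05.

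**Figure D2:**
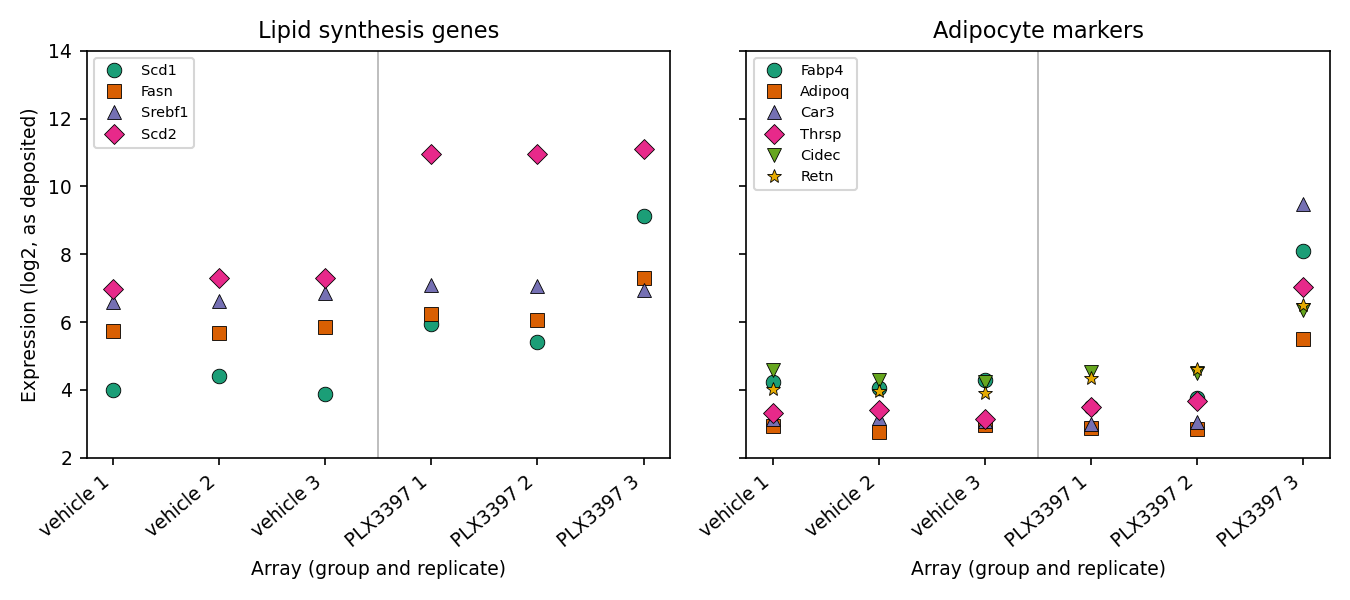
Expression (log2, as deposited) on each array of 4 lipid synthesis genes (left) and 6 adipocyte markers (right), 1 point for each gene and array. Scd2 is high on all 3 PLX3397 arrays, while Scd1 (9.13), Fasn (7.29) and the adipocyte markers are highest on PLX3397 replicate 3.

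Among the other targets Srebf1, the LXR-driven regulator of fatty acid synthesis, rose by 0.35 (SE 0.09, adjusted p = 0.013), and its adjusted p was 0.113 with centred arrays. Cd5l, a secreted macrophage protein, was not above background on vehicle arrays, and it rose at least 2.14-fold with PLX3397 (adjusted p = 1.82e-06). Abcg8, a sterol exporter of liver and gut, rose by 0.35 (SE 0.10) from a level above background on 1 vehicle array. Smpdl3a, a phosphodiesterase, fell by 1.00 (SE 0.14, adjusted p = 2.43e-04) and Mertk, a receptor for dying cells, by 0.37 (SE 0.11, adjusted p = 0.025). Lpl, the lipoprotein lipase, was bright in both groups and differed by -0.04 (adjusted p = 0.871), and Lpcat3, which remodels phospholipids, differed by 0.17 (adjusted p = 0.126). The 3 genes with a match to the repeat, Abca1, Srebf1 and Fasn, were all higher with PLX3397, and 19.6% of all genes were called higher. Fasn was highest on the array with adipocyte markers, and the Srebf1 call was lost with centred arrays. Of the 15 listed targets only 10 had a window, so those with no match found include genes not searched. Such targets went both ways, as Scd2 and Cd5l rose and Smpdl3a and Mertk fell. Measured members with a window and no match, Apoe, Nr1h3, Mylip and Pltp, differed by -4.52, -2.28, -0.24 and -0.14. A link between the repeat and the differences was not tested. The count of rises was 3 with centred arrays and 3 without vehicle replicate 3, and that of falls was 1 without vehicle replicate 2 or 3 or PLX3397 replicate 3.

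**Figure D3:**
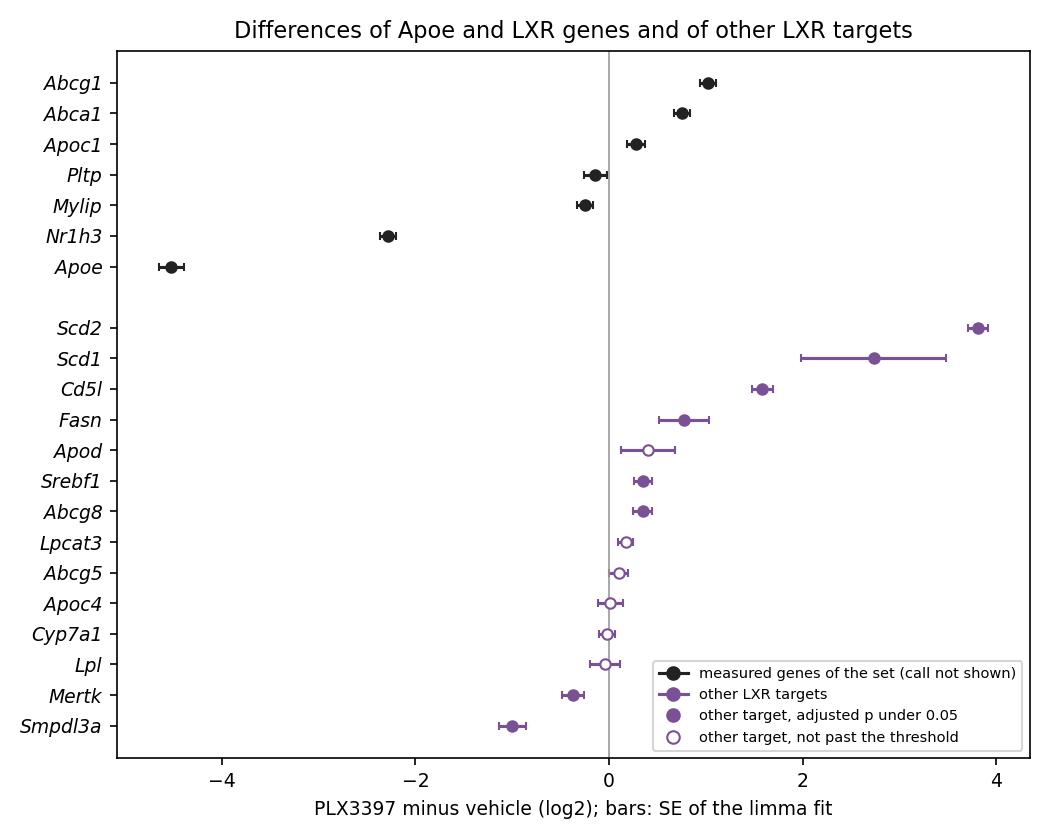
Difference between groups (PLX3397 minus vehicle, log2) with the SE of the limma fit, for the 7 measured genes of the set (black, no call shown) and 14 further LXR targets (purple, filled where the adjusted p was below 0.05). Apoe and Nr1h3 are lowest at -4.52 and -2.28, and Scd2 and Scd1 highest at 3.81 and 2.73, the latter with a wide error.

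Of 9 partners of LXR and co-regulators that nuclear receptors recruit 2 rose and 3 fell, at a median of -0.01. Over all genes 37.8% were called in either direction. Rxra, which encodes the main RXR partner, rose by 0.34 (SE 0.10, adjusted p = 0.018), a call lost with centred arrays (0.20, adjusted p = 0.140). The falls were those of Nrip1, a co-repressor (-1.35, SE 0.10, adjusted p = 3.73e-06), the co-activator gene Ncoa2 (-1.11, SE 0.11) and the mediator subunit gene Med1 (-0.72, SE 0.09). Rxrb differed by 0.24 (adjusted p = 0.074) and Rxrg by -0.01 below background. The count of rises was 0 with centred arrays or without vehicle replicate 2, and 1 with quantile normalisation or without PLX3397 replicate 1 or 2.

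Among enzymes that make or remove LXR ligands 3 of 7 rose and 2 fell, beside 37.8% of all genes called, with a median of 0.13. Ch25h, which makes an oxysterol that binds LXR, was at 5.11, 5.44 and 5.52 with vehicle and at 9.02, 8.67 and 8.53 with PLX3397. It rose by 3.39 (SE 0.14, adjusted p = 7.01e-08) without overlap. Hsd3b7, which acts on oxysterols on the way to bile acids, rose by 0.68 (SE 0.08, adjusted p = 7.89e-05). Cyp11a1 passed as higher and Cyp7b1 as lower, but Cyp11a1 exceeded background on 1 PLX3397 array and Cyp7b1 on 0 arrays, so no fold is given. Cyp27a1, which makes another such oxysterol in mitochondria, fell by 0.29 (SE 0.08, adjusted p = 0.017). The count of falls was 0 without vehicle replicate 2 and 1 without any other array.

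Receptors of ApoE, with the chaperone of that receptor family, had 7 of 10 genes higher and 2 lower, beside 37.8% of all genes called in either direction, at a median of 0.63 beside 0.04 over all genes. This list too was chosen with earlier results of these data known. Lrpap1, the chaperone, rose by 1.97 (SE 0.08, adjusted p = 4.62e-08) and Lsr, a lipoprotein receptor, by 1.42 (SE 0.10, adjusted p = 1.80e-06). Trem2, a receptor of lipid-laden macrophages, was at 8.26, 8.46 and 8.30 with vehicle and at 9.57, 9.61 and 9.41 with PLX3397, a rise of 1.19 (SE 0.09, adjusted p = 4.17e-06). Lrp1, the large scavenging receptor, rose by 0.69, Scarb1, the receptor for high-density lipoprotein, by 0.57, Vldlr by 0.70 and Lrp8 by 0.46. Vldlr and Lrp8 encode proteins that the Mylip ligase degrades. The falls were those of Sorl1, a sorting receptor (-1.02, SE 0.12, adjusted p = 6.93e-05), and Sdc1 (-0.34, SE 0.08). For Vldlr the adjusted p over the alternatives ran up to 0.051.

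None of the 14 other apolipoproteins and lipoprotein enzymes measured passed the threshold in the limma fit, beside 37.8% of all genes called. Their differences lay between -0.11 and 0.24. At an unadjusted p below 0.05 the count was 2, Mttp and Apoa4, both higher. Many genes of the list were dim, as only 7 of the 14 exceeded background in each vehicle sample and 9 in each treated sample. Apob, the protein of low-density lipoprotein, was not above background on any array, and 4 of the 14 exceeded it on 0 arrays. For genes at the floor the absence of a call shows little. Whether Apoe differs from the genes of this list was not tested.

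Of 15 other cholesterol transporters and esterases 4 rose and 2 fell, beside 37.8% of all genes called, at a median of -0.03. Related carriers that bring cholesterol from the cell membrane to the endoplasmic reticulum moved in opposite directions, as Gramd1b rose by 1.53 (SE 0.09, adjusted p = 6.63e-07) and Gramd1a fell by 1.23 (SE 0.08, adjusted p = 1.39e-06). Abca9 was not above background with vehicle and at least 1.89-fold higher with PLX3397. Npc2 and Npc1, which take cholesterol out of the lysosome, rose by 0.46 (SE 0.09) and 0.41 (SE 0.08), and Nceh1, which splits cholesterol esters, fell by 0.31 (SE 0.10, adjusted p = 0.034). The count of falls was 1 without any single array other than PLX3397 replicate 2, and 4 with centred arrays.

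Cholesterol synthesis and SREBP2 genes, which sterols turn down, had 4 of 16 higher and 4 lower, at a median of 0.06. The share called over all genes was 37.8%. Sc5d and Idi1 fell by 1.02 (SE 0.09) and 0.94 (SE 0.10), while Lss and Mvd rose by 0.63 (SE 0.09) and 0.54 (SE 0.09). Of the 10 PPAR receptors and targets 2 rose and 3 fell, beside the same 37.8% of all genes called. Ppard rose by 0.85 (SE 0.08, adjusted p = 1.98e-05), Plin2, which coats lipid droplets, fell by 0.49 (SE 0.11) and Cpt1a by 0.42 (SE 0.10). Pparg, a receptor that raises Nr1h3 in macrophages, was at 5.46, 5.47 and 5.25 with vehicle and at 4.42, 4.50 and 5.27 with PLX3397, the highest on the array with adipocyte markers. It fell by 0.66 (SE 0.19, adjusted p = 0.020) and by 0.93 without PLX3397 replicate 3 (adjusted p = 4.44e-05). The call was lost without vehicle replicate 1 or 2 or PLX3397 replicate 1 or 2 (highest adjusted p 0.080).

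**Figure D4:**
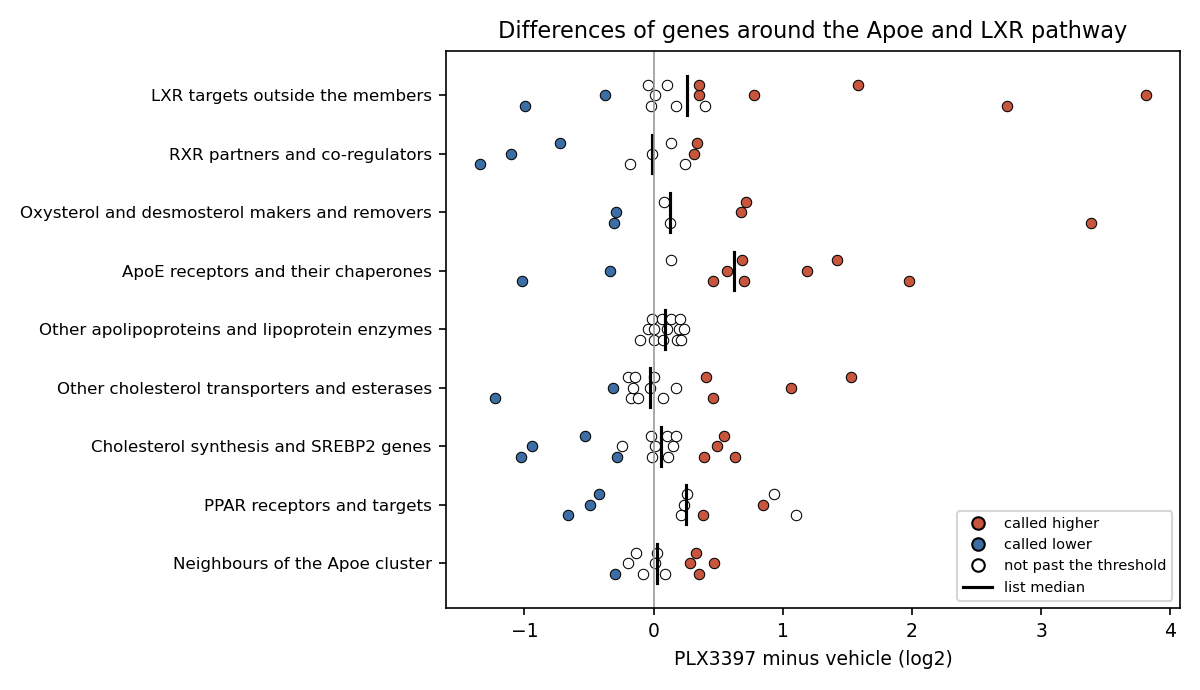
Difference of each measured gene (PLX3397 minus vehicle, log2) in 9 lists around the pathway, red where called higher, blue where called lower and white where not past the threshold, with the list median as a bar. The ApoE receptor list has the median farthest from 0, at 0.63, and the list of other apolipoproteins has no call.

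Apoe lies on chromosome 7 in a cluster with Apoc1, Apoc4 and Apoc2, and 11 genes of this stretch besides the members were measured, Apoc4 among them. The genes next to the cluster did not pass the threshold in the values as deposited, with Tomm40 at -0.14 (SE 0.08, adjusted p = 0.219) on one side and Clptm1 at -0.08 (SE 0.08, adjusted p = 0.447) on the other. With centred arrays Tomm40 was called lower, at -0.27 (adjusted p = 0.030), and Clptm1 had an adjusted p of 0.051. Apoc4 differed by 0.01 (SE 0.13, adjusted p = 0.944). Of the 11 genes 4 rose and 1 fell, beside 37.8% of all genes called, and none by over 0.5. Ceacam16 rose by 0.47 (SE 0.13), Cblc by 0.35 (SE 0.09), Bcam by 0.33 (SE 0.09) and Zfp296 by 0.28 (SE 0.08). Of these, Ceacam16 exceeded background on only 1 vehicle array, and its groups overlapped. Relb fell by 0.30 (SE 0.09). With centred arrays 0 rose and 3 fell, Tomm40, Relb and Bcl3, and with quantile normalisation 1 rose and 0 fell. Without vehicle replicate 1, 2 or 3 or PLX3397 replicate 1 the rises numbered 2, and without vehicle replicate 1 or 3 or PLX3397 replicate 1 the falls numbered 0.

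The genes whose values over the 6 arrays were most like those of Apoe were Ms4a4a, Itga4, Adgre4, Cd300e and Ms4a4c. Likeness was the root-mean-square difference of log2 values after each gene's mean was taken off, 0.15 for Ms4a4a and 0.51 to 0.63 for the others. Ms4a4a, a membrane protein gene, was at 11.51, 11.63 and 11.41 with vehicle and at 6.91, 7.43 and 7.29 with PLX3397, so that both genes had replicate 1 as the lowest treated array and replicate 2 as the highest. For Nr1h3 the nearest were Pgm2l1 (0.05), Peli1 (0.09) and Gpr65 (0.09), which differed by -2.22, -2.13 and -2.13. With 2 groups of arrays this measure depends mostly on the size of the group difference, and members of the Ms4a family can share probes.

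The 7 measured macrophage markers were above background on every array, with a mean level of 11.25 to 11.32 with vehicle and 11.24 to 11.41 with PLX3397. Of these 7 markers 2 rose, Itgam by 0.97 and Cd14 by 0.55, and 2 fell, Fcgr1 and Adgre1, with differences of -0.79 and -0.42. Of 9 genes of Kupffer cells, the resident macrophages of the liver, 5 fell and 2 rose. Over all genes 18.3% were called lower and 19.6% higher. The mean level of the Kupffer cell genes was 5.28 to 5.38 with vehicle and 4.28 to 4.43 with PLX3397. Id3, Folr2, Spic, Timd4 and Marco fell, the first 4 of these with differences of -2.87, -2.51, -2.45 and -1.90. Clec4f and Cd5l rose, Clec4f from a vehicle mean of 3.55, close to background. Vsig4 and Cd163 exceeded background on 0 arrays. Of 6 monocyte genes 3 fell and 2 rose, with a mean level of 6.11 to 6.18 against 4.57 to 4.70. Itga4, Treml4 and Ms4a4c fell by over 3. The rises were those of Nr4a1, by 0.52, and Ccr2, which exceeded background on 0 arrays. In bulk RNA fewer cells of a type and less RNA per cell cannot be told apart, and the part of such cells in the Apoe and Nr1h3 values was not tested.

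Hepatocytes also make ApoE. Of 15 hepatocyte and hepatoma genes 7, Alb and Apob among them, exceeded background on 0 arrays. The list's mean level was 3.78 to 3.94 with vehicle and 4.18 to 4.26 with PLX3397. Only Trf and Rbp4 were called, higher by 2.85 and 2.70, while 13 genes were not called and the list's median difference was 0.02. Over all genes 19.6% were called higher and 18.3% lower. Of 9 endothelial genes 4 rose and 0 fell (mean level 4.06 to 4.16 against 4.75 to 4.94). Of 8 dendritic cell genes 3 rose and 0 fell (3.97 to 4.06 against 4.82 to 5.03), at a median of 0.21. These rises were those of Ccr7 (3.35), Itgax (3.04) and Zbtb46 (0.39), and 3 of the 8 genes exceeded background on 0 arrays. Of 11 neutrophil genes 3 rose and 1 fell (4.21 to 4.31 against 4.29 to 4.40). Of the neutrophil rises Ly6g and Ltf exceeded background on 0 arrays, and without PLX3397 replicate 3 only 1 rise, that of S100a8, was past the threshold. Of 9 fibroblast genes 0 rose and 2 fell (5.16 to 5.50 against 5.14 to 5.81), and of 8 lymphocyte genes, 7 of them above background on 0 arrays, 3 rose, each of these on 0 arrays above background (2.96 to 3.03 against 3.16 to 3.20). The lists share members with those above, such as Cd5l and Apob.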

How the data were processed

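RNA of 6 sorted macrophage samples, 3 per group, was measured on Affymetrix Mouse Gene 1.0 ST arrays, per the labels' protocols. The values deposited by the authors, 1 per probe set and array, are on a log2 scale, a base taken from their range (1.57 to 13.47). How they were summarised, normalised and filtered is not stated in any source used here. MAS5 appears among the tools in the submitters' processing notes, without a stated role. Array medians lay between 4.21 and 4.35, so values were used as deposited (quantile normalisation was to follow only where medians differed by over 0.5).

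Of 28941 probe sets 21789 carry 1 symbol, 1621 several and 5531 are unnamed here, and 21698 of those with 1 symbol matched a RefSeq gene by Entrez identifier. The brightest probe set stood for each of 19938 genes. Groups were compared with limma 3.58.1 in R 4.3.3 (a linear model on group alone with moderated variances, two-sided, Benjamini-Hochberg over all genes, threshold 0.05). The same fit was also run on simulated data, with an outcome not reported here. A fold against a group with no array above background is a bound ("at least"), the brighter mean over the background level. The number of arrays limits the precision: an exact permutation test of 1 gene cannot go below 0.1.

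The genes of the set and all lists were chosen with earlier results of these data known. Named were every member, up to 4 called genes of each list with the largest difference, the 5 genes most like Apoe and the 3 most like Nr1h3, leaving out predicted genes. Other genes of the lists, and the adipocyte markers, were named after their values were seen. Alternatives covered normalisation, centring, 2 filters on dim genes, the replicate number as a block, array weights, variance settings, averaged probe sets and leaving out each array. Promoter sequences came from RefSeq (GRCm38.p6). Hybridisation batches were not analysed here.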

Additional observations from a re-analysis of the deposited data

How the results depend on the processing

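As a description of genes chosen on this comparison, the difference over the 14 alternatives ran from -4.66 to -4.37 for Apoe, -2.42 to -2.24 for Nr1h3, 0.62 to 0.80 for Abca1 and 0.89 to 1.06 for Abcg1. The difference ran from -0.38 to -0.13 for Mylip and -0.27 to -0.02 for Pltp, and over 12 alternatives from 0.15 to 0.35 for Apoc1. Centring each array on its median gave 2282 higher genes, against 3900 as deposited, and with only genes of a mean of at least 5 there were 2587 higher. The same numbers did not pair the samples: deviations of same-numbered arrays from their group means correlated at -0.01, 0.008 and -0.013 over genes. With the replicate block 7154 genes were called, against 7539. Leaving out 1 array gave 6332 to 7101 calls.

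Counts in the lists rested on few genes. With centred arrays there were 3 higher LXR targets, 0 higher RXR partners and co-regulators, 1 lower apolipoprotein or lipoprotein enzyme, 4 lower cholesterol transporters, and 0 higher and 3 lower neighbours of Apoe. With quantile normalisation there were 1 higher RXR partner or co-regulator, and 1 higher and 0 lower neighbours. With only genes above background on at least 3 arrays 1 ligand enzyme was lower and 1 apolipoprotein or lipoprotein enzyme higher, the latter also with array weights (1). With only genes of a mean of at least 5 there were 0 lower ligand enzymes, 4 higher and 1 lower ApoE receptors, and 1 higher neighbour, since fewer genes were tested. Leaving out 1 array gave 3 to 6 higher and 1 to 2 lower LXR targets, 0 to 2 higher RXR partners and co-regulators, 0 to 1 lower ligand enzymes, 0 to 1 higher apolipoproteins or lipoprotein enzymes, 1 to 2 lower cholesterol transporters, and 2 to 4 higher and 0 to 1 lower neighbours. The filters took genes out of the fit, such as Cyp7b1, which exceeded background on 0 arrays. Causes of the other changes in the counts were not tested. For each list the up to 4 called genes with the largest differences, 32 in all, had 437 values under the alternatives. Of these values 0 changed direction and 29 were not past the threshold. Such genes were picked for large differences, so a change of direction was unlikely from the start. Of other list genes named above, Lpl ran from -0.19 to 0.14 and Apoc4 from -0.13 to 0.15. The adjusted p of the limma fit reached 0.142 for Fasn and 0.113 for Srebf1.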
